A study of Mus musculus with 6 samples.

Results

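The genes described here encode 7 subunits of the GABA-A receptor: Gabra2, Gabra3, Gabra4, and Gabra5 (the α2 to α5 subunits), Gabrb1 and Gabrb2 (β1 and β2), and Gabrd (δ). They were chosen by symbol, with earlier results of these data known, and they are 7 of the 14477 genes listed for the mouse hippocampus. All 7 were measured with a CPM (read count scaled to the library's effective size) of at least 1 in all 6 mice. RNA-Seq was performed on hippocampal tissue with 1 library per mouse, from Phf21bΔ4/Δ4 replicates 2, 3, and 6 and their Phf21b+/+ counterparts, replicates 5, 7, and 8 (n = 3 each). Phf21bΔ4/Δ4 mice carry a CRISPR/Cas9 disruption of exon 4 of Phf21b, which encodes a reader of histone marks, on both alleles and in every tissue. Both genotypes were on a C57BL/6J background, were untreated, and were sampled at baseline. The study worked with young adult littermates of both sexes, but neither the sex nor a batch is given for these 6 mice. The study describes the line as one with lowered Phf21b and not as a null.

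GABA-A receptors are pentameric chloride channels that open when GABA binds, and they carry most fast inhibition in the forebrain. A typical receptor combines α and β subunits with either a γ subunit, which is needed for clustering at synapses, or δ, which places the receptor outside the synapse. GABA binds where a β subunit meets an α subunit, and the α subunit sets much of the receptor's kinetics, position, and drug sensitivity. In the hippocampus, α5 is abundant in pyramidal neurons and contributes to tonic inhibition, α2 is found at synapses and at the axon initial segment of pyramidal cells, and α4 pairs with δ outside the synapses of dentate granule cells. The α4 and δ pair is also abundant in the thalamus.

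Phf21b itself had 2.15, 3.57, and 3.87 CPM in Phf21bΔ4/Δ4 replicates 2, 3, and 6 and 6.50, 5.23, and 6.47 CPM in Phf21b+/+ replicates 5, 7, and 8. It was lower in each Phf21bΔ4/Δ4 mouse than in any Phf21b+/+ mouse (log2 change -0.96, SE 0.26, limma adjusted p = 0.141). The libraries held 20495605 to 24881257 reads on the listed genes, and 3 reads corresponded to 0.127 to 0.143 CPM. Markers of neighbouring tissue differed between the genotypes. The summed level of 12 medial habenula markers was 7.13 to 11.5 CPM in Phf21bΔ4/Δ4 mice and 175 to 244 CPM in Phf21b+/+ mice. All 12 were called lower by the rule given in the next paragraph, against 1.22% of all genes called in either direction. Of the 12, 3 had at most 3 reads in every Phf21bΔ4/Δ4 library. Most of the 12 are also in the study's own list of genes lowered in these libraries. The markers were chosen with earlier results known, so their count is only a description. The summed level of 9 thalamus markers was 80.9 to 174 CPM against 332 to 512 CPM. Markers of choroid plexus summed to 16064 CPM in Phf21b+/+ replicate 7 and to 27.8 to 1010 CPM in the other 5 mice. Replicate 6 stood apart from the other Phf21bΔ4/Δ4 mice in its dentate granule cell markers, as described beside Gabra4 and Gabrd, and log2 changes are also given without it.

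Genotypes were compared for all 14477 genes with limma on the deposited log2 CPM, with p-values adjusted by the Benjamini-Hochberg method over all genes. A gene was called changed at an adjusted p (FDR) under 0.1 and a fold change above 1.3. By this rule 0 of the 7 subunits changed, against 1.22% of all genes. At an unadjusted p under 0.05 there were 4 of 7, Gabra2 and Gabrb1 with higher and Gabra4 and Gabrd with lower levels in Phf21bΔ4/Δ4 mice, where the share over all genes was 23.6%. The same 4 subunits were those in which the genotypes did not overlap, against 31.0% of all genes. Limma voom on the reads likewise called 0 of 7, with 4 at an unadjusted p under 0.05. The median log2 change of the 7 subunits was 0.29, and that of all genes was -0.019. It was 0.38 over 8 general neuronal markers, of which 8 had higher means, and 0.23 over 39 other genes of GABA signalling. The subunits' median was 0.13 with quantile normalization and 0.45 without Phf21bΔ4/Δ4 replicate 3. The labels name separate mice. Limma p-values rest on the spread between 3 mice per genotype, drawn toward a variance fitted over all genes.

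**Figure D1:**
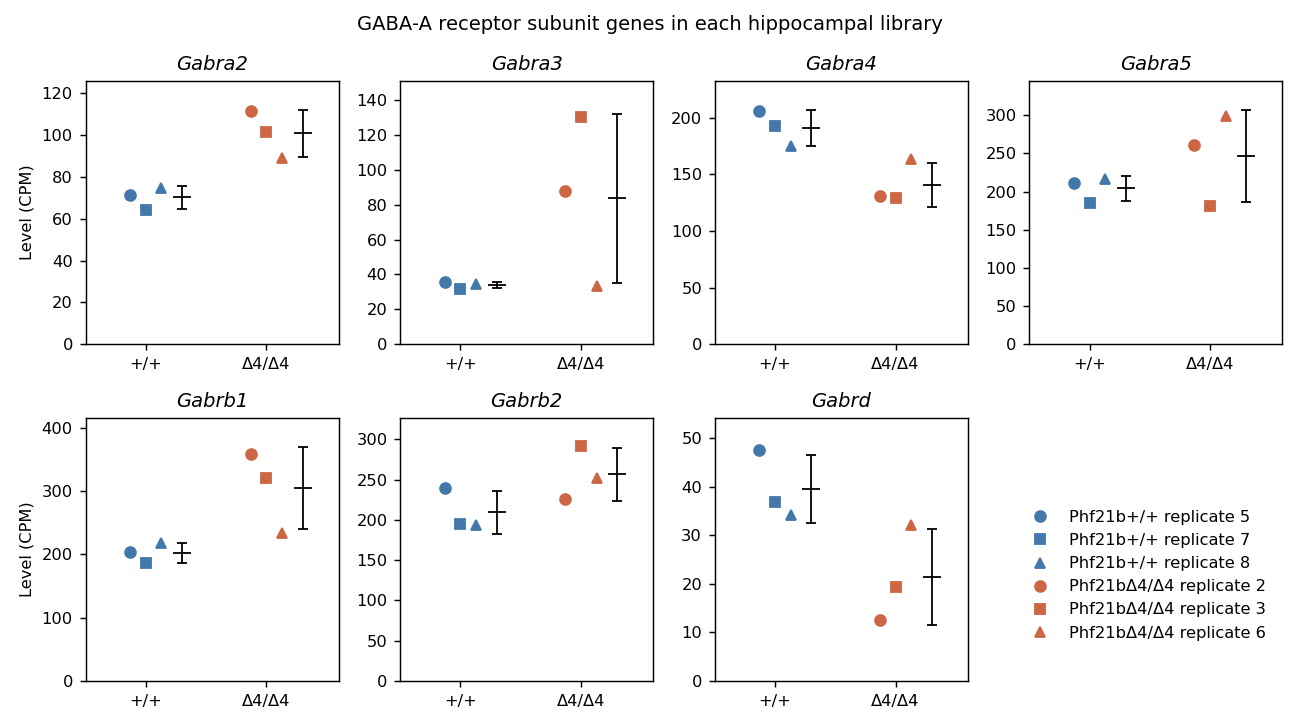
CPM of the 7 GABA-A receptor subunit genes, with 1 symbol per mouse and the mean with SD over 3 mice in black beside each genotype. Gabra2 and Gabrb1 were higher and Gabra4 and Gabrd lower in every Phf21bΔ4/Δ4 mouse, and Gabra3 was at 33.1 CPM in Phf21bΔ4/Δ4 replicate 6, near the Phf21b+/+ mice, and at 87.6 and 130 CPM in replicates 2 and 3.

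Among the α subunits, Gabra2 had the narrowest error. It had 112, 101, and 89.2 CPM in Phf21bΔ4/Δ4 replicates 2, 3, and 6 and 71.3, 64.4, and 74.8 CPM in Phf21b+/+ replicates 5, 7, and 8. All 3 Phf21bΔ4/Δ4 mice were above all 3 Phf21b+/+ mice, with means of 100.8 ± 11.2 and 70.2 ± 5.33 CPM (SD, n = 3 each). The log2 change was 0.52 (SE 0.11, 95% interval 0.27 to 0.77), and its adjusted p of 0.116 in limma missed the threshold. The exact two-sided permutation test over the 6 mice gave p = 0.1, the smallest that 3 against 3 mice allow.

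Gabra4, the usual partner of δ, differed the other way. Its levels were 130, 129, and 163 CPM in Phf21bΔ4/Δ4 replicates 2, 3, and 6 and 206, 192, and 175 CPM in Phf21b+/+ replicates 5, 7, and 8. The genotypes did not overlap, although replicate 6 lay closer to the Phf21b+/+ mice than the other Phf21bΔ4/Δ4 mice did. The means were 140.9 ± 19.4 and 191 ± 15.9 CPM (SD, n = 3 each), with a log2 change of -0.44 (SE 0.12, 95% interval -0.73 to -0.16, limma adjusted p = 0.141). The exact permutation p was 0.1.

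Gabra3 had the largest log2 change of the 7 and the widest spread. In Phf21bΔ4/Δ4 replicates 2 and 3 it reached 87.6 and 130 CPM, whereas replicate 6 had 33.1 CPM. Phf21b+/+ replicates 5, 7, and 8 had 35.7, 31.9, and 34.4 CPM. The higher mean in Phf21bΔ4/Δ4 mice (83.6 ± 48.6 against 34.0 ± 1.93 CPM; SD, n = 3 each) therefore came from replicates 2 and 3, and replicate 6 lay within the Phf21b+/+ range. The log2 change was 1.09 (SE 0.46, limma adjusted p = 0.212), and the exact permutation p was 0.3. Without replicate 6 the log2 change was 1.65, with a limma adjusted p of 0.0114, in a fit where 19.5% of all genes passed the threshold. Without replicate 3 the log2 change was 0.67, with a limma adjusted p of 0.409. Gabra3 is an X-linked gene. Xist, the RNA that coats the inactive X chromosome of female cells, had 86.9 to 216 CPM across the 6 mice, with at least 2059 reads in each. All 6 libraries thus read as female, although the labels do not give the sex. The part of sex in the Gabra3 result was not tested.

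Gabra5, the α subunit typical of hippocampal pyramidal neurons, overlapped between the genotypes. It had 261, 181, and 299 CPM in Phf21bΔ4/Δ4 replicates 2, 3, and 6 and 211, 186, and 216 CPM in Phf21b+/+ replicates 5, 7, and 8. Replicate 3 was the lowest of the 6 mice, and the other Phf21bΔ4/Δ4 mice were the highest. The log2 change was 0.24 (SE 0.19, 95% interval -0.20 to 0.69, limma adjusted p = 0.429), and the exact permutation p was 0.4. The log2 change of Gabra5 depended on single mice, at 0.09 without replicate 6 and 0.45 without replicate 3, and was 0.08 with quantile normalization.

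Of the β subunits, Gabrb1 did not overlap between the genotypes. It had 359, 321, and 234 CPM in Phf21bΔ4/Δ4 replicates 2, 3, and 6 and 204, 186, and 218 CPM in Phf21b+/+ replicates 5, 7, and 8. Replicate 6 exceeded the highest Phf21b+/+ mouse by less than the range of the Phf21b+/+ mice. The means were 304.7 ± 64.1 and 202.4 ± 16.1 CPM (SD, n = 3 each), and the log2 change was 0.57 (SE 0.16, 95% interval 0.18 to 0.96, limma adjusted p = 0.149; exact permutation p = 0.1). Gabrb2, the β subunit of the most common synaptic receptor, had 226, 292, and 252 CPM in Phf21bΔ4/Δ4 replicates 2, 3, and 6 and 239.97, 195, and 193 CPM in Phf21b+/+ replicates 5, 7, and 8. Its ranges overlapped, since Phf21b+/+ replicate 5 was above Phf21bΔ4/Δ4 replicate 2. The log2 change of Gabrb2 was 0.29 (SE 0.13, 95% interval -0.02 to 0.60, limma adjusted p = 0.227), and the exact permutation p was 0.2. With quantile normalization it was 0.13, and without Phf21bΔ4/Δ4 replicate 3 it was 0.20.

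Gabrd, which encodes δ, had 299 to 1001 reads per library, including the fewest of any of the 7 subunits. It had 12.6, 19.3, and 32.1 CPM in Phf21bΔ4/Δ4 replicates 2, 3, and 6 and 47.5, 37.0, and 34.2 CPM in Phf21b+/+ replicates 5, 7, and 8. The genotypes did not overlap, but the gap between Phf21bΔ4/Δ4 replicate 6 and Phf21b+/+ replicate 8 was narrow. The means were 21.4 ± 9.92 and 39.5 ± 7.03 CPM (SD, n = 3 each). The log2 change was -0.98 (SE 0.33, 95% interval -1.76 to -0.20, limma adjusted p = 0.166; exact permutation p = 0.1). Without replicate 6 it was -1.33, with a limma adjusted p of 0.0268, in a fit where 19.5% of all genes passed the threshold. Without replicate 2 the log2 change was -0.65, with a limma adjusted p of 0.344.

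Whether subunits passed the threshold depended on the mice and on the processing. Without Phf21bΔ4/Δ4 replicate 6, 5 of 7 subunits passed the threshold, Gabra2, Gabra3, and Gabrb1 higher and Gabra4 and Gabrd lower, while 19.5% of all genes did. The log2 changes without it were 0.60 for Gabra2, 0.75 for Gabrb1, -0.56 for Gabra4, and 0.30 for Gabrb2. With each of the other 5 mice left out, 0 of 7 passed. Weighting the mice by their residual spread (limma arrayWeights) brought the same 5 of 7 past the threshold, against 24.5% of all genes. The weights were lowest for Phf21bΔ4/Δ4 replicate 6 (0.343) and highest for Phf21b+/+ replicate 8 (4.63) and Phf21bΔ4/Δ4 replicate 2 (2.04). That fit therefore leaned on few mice and is not independent of leaving out replicate 6. After correction of each mouse for gene GC content, 1 of 7 passed (Gabra2, 3.85% of all genes), and after correction for gene length also 1 of 7 (Gabra2, 2.42% of all genes). The GC correction also left Gabra4 and Gabrd overlapping between the genotypes.

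Subunit levels can be set beside one another only per length. Per kb of merged exon, Gabra5 was the most abundant of the 7 in Phf21b+/+ mice, at 68.7 ± 5.50 CPM per kb (SD, n = 3). It was followed by Gabrb2 (32.9 ± 4.17) and Gabra4 (31.4 ± 2.62), whose levels per kb lay within their spread. Gabrb1 (14.6 ± 1.16) and Gabrd (13.75 ± 2.45 CPM per kb) came next and overlapped, as did Gabra2 (9.18 ± 0.697) and Gabra3 (8.67 ± 0.491 CPM per kb). In Phf21bΔ4/Δ4 mice Gabra5 was again highest, at 83.0 ± 20.3 CPM per kb, and Gabrb2 was next at 40.4 ± 5.20 CPM per kb. Gabra4 (23.2 ± 3.18), Gabrb1 (22.0 ± 4.63), and Gabra3 (21.3 ± 12.4 CPM per kb) were not separable by their spread. Gabra2 (13.2 ± 1.47) and Gabrd (7.43 ± 3.45 CPM per kb) had lower means, but Gabra3 was not separable from either, and in replicate 6 it was the lowest of the 7.

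As a share of the 7 subunits' summed level per kb of merged exon, Gabra4 and Gabrd were lower in every Phf21bΔ4/Δ4 mouse. Gabra4 took 10.1%, 10.4%, and 12.5% in Phf21bΔ4/Δ4 replicates 2, 3, and 6 and 17.6%, 18.9%, and 16.1% in Phf21b+/+ replicates 5, 7, and 8. Gabrd took 2.07%, 3.29%, and 5.20% against 8.59%, 7.68%, and 6.68%. Neither share overlapped between the genotypes. The share of Gabra5 was 39.3% ± 8.66 in Phf21bΔ4/Δ4 and 38.3% ± 2.18 in Phf21b+/+ mice (SD, n = 3 each), a difference smaller than its spread. The shares of the other 4 subunits overlapped. With coding length in place of merged exon length, Gabrb1 (27.2% ± 4.74) and Gabra5 (22.8% ± 6.15) were not separable by their spread in Phf21bΔ4/Δ4 mice, with Gabra5 the higher of the pair in replicate 6. Gabra4 and Gabrd still did not overlap, and the share of Gabra2 no longer overlapped (9.49% ± 0.69 in Phf21bΔ4/Δ4 against 8.13% ± 0.49 in Phf21b+/+ mice).

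**Figure D2:**
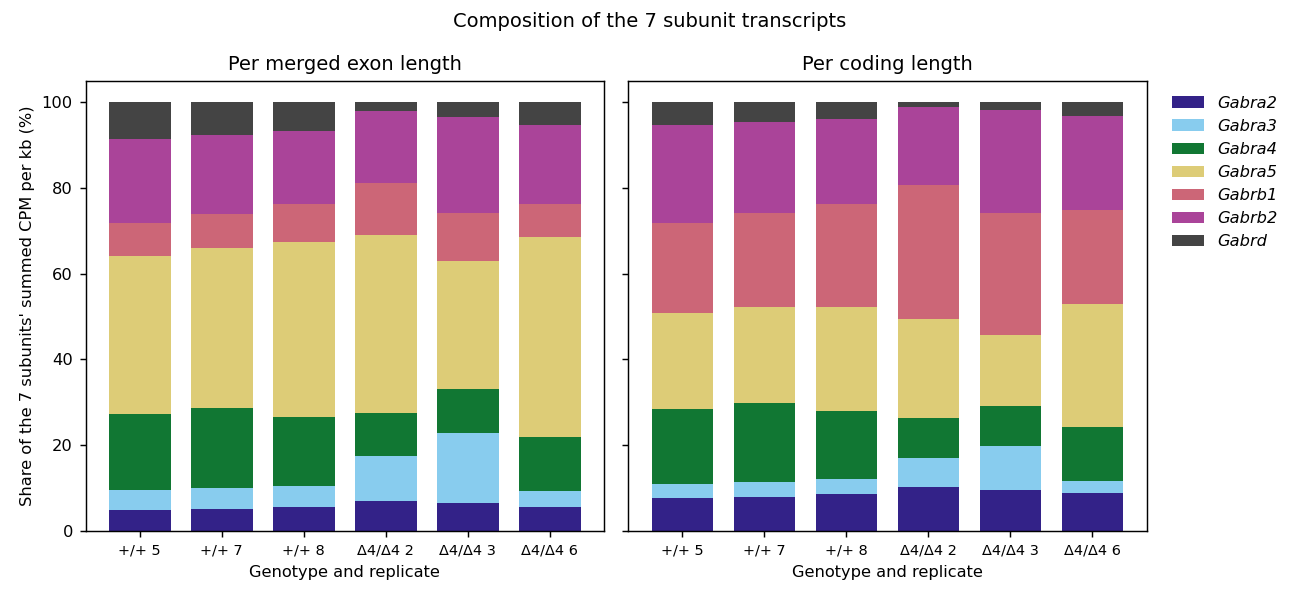
Share of each of the 7 subunits in their summed CPM per kb (%), in stacked bars with 1 bar per mouse, per merged exon length on the left and per coding length on the right. With either length, Gabra4 was at 12.6% or below in all Phf21bΔ4/Δ4 mice and at 15.8% or above in all Phf21b+/+ mice.

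The genes of these subunits lie in clusters, and 3 of the 7 share a cluster on mouse chromosome 5. In the GENCODE annotation of GRCm38, Gabra2 occupies chr5:70957597-71095849 on the minus strand, Gabra4 chr5:71569749-71658308 on the minus strand, and Gabrb1 chr5:71658113-72149037 on the plus strand. Gabra4, lower in Phf21bΔ4/Δ4 mice, thus lies between Gabra2 and Gabrb1, both of which were higher. Gabra4 and Gabrb1 start head to head, and their annotated spans overlap by 196 bp. The exon bases they share number 46, which is 0.756% of Gabra4 and 0.332% of Gabrb1, and reads from them cannot be assigned unless the counting used strand, which is not stated in the sources used here. Of the others, Gabra5 lies at chr7:57407672-57510059 on the minus strand, Gabrb2 at chr11:42419757-42629028 on the plus strand, Gabra3 at chrX:72432681-72656848 on the minus strand, and Gabrd at chr4:155384980-155398112 on the minus strand. Gabra5 shares 148 exon bases (4.98%) with Gm9962 on the opposite strand.

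Sequence before a RefSeq start of each of the 3 clustered genes is shown because neighbours on this cluster differed in direction. The stretches come from the RefSeq promoter windows of GRCm38.p6 (250 bases before and 50 after a start), trimmed where they run into exons of protein-coding genes, and are written 5′ to 3′ on the gene's strand. For Gabrb1 the second of 2 windows is shown, since most of the first is exon sequence. Its start lies inside the gene as annotated above and is not the one that faces Gabra4. Capitals mark GGGCGG or its reverse complement, the GC box bound by Sp family factors.
Gabra2, minus strand, chr5:71095850-71096099: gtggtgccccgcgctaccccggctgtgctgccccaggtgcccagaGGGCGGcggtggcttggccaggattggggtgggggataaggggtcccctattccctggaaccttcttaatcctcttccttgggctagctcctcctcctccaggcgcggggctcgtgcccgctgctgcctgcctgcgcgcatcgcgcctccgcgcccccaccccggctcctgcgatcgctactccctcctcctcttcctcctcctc
Gabra4, minus strand, chr5:71658364-71658558: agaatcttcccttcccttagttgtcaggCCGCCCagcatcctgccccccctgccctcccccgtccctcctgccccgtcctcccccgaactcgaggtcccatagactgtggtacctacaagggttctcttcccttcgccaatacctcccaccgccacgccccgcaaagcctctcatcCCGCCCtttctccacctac
Gabrb1, plus strand, chr5:71699682-71699931: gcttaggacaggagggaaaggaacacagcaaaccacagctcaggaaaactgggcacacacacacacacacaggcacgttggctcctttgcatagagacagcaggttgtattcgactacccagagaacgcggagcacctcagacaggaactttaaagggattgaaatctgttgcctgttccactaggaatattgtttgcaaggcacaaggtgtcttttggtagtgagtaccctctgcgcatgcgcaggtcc

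The Gabra2 and Gabra4 windows each held 2 GGGCGG matches, of which 1 in Gabra2 lies outside the stretch shown, and the 2 windows of Gabrb1 held 0. The Gabra4 stretch, with both of its matches, lies within the annotated span of Gabrb1, so these matches cannot be ascribed to Gabra4 alone. Of the 32851 windows in the table, 35.7% held GGGCGG on either strand. The CREB element TGACGTCA was in 0 of the 10 windows that matched 6 of the 7 subunits (1.79% of all windows), and its shorter form TGACG, which also lies within TGACGTCA, was in 1, a Gabrb2 window (20.8% of all windows). The TATA motif TATAAA, counted like the other motifs on either strand, was in 13.6% of all windows. On the gene's own strand it was in 1 Gabrb2 window. In 2 overlapping Gabra3 windows only its reverse complement TTTATA was found. The Gabra2 window had a GC content of 70%, that of Gabra4 58.7%, and those of Gabrb1 66% and 50.3%, around a median of 52.7% over all windows. Gabrd had no window in the table.

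Ratios within a mouse do not depend on how libraries were scaled. The log2 ratio of Gabra2 to Gabra4 was -0.23, -0.35, and -0.87 in Phf21bΔ4/Δ4 replicates 2, 3, and 6 and -1.53, -1.58, and -1.22 in Phf21b+/+ replicates 5, 7, and 8. That of Gabra4 to Gabrb1 was -1.46, -1.31, and -0.52 against 0.02, 0.05, and -0.32. Neither ratio overlapped between the genotypes, with differences of 0.96 and -1.02 on the log2 scale (exact permutation p = 0.1 each, the smallest possible). Gabra2 and Gabrb1, in contrast, had a log2 ratio of -1.58 ± 0.16 in Phf21bΔ4/Δ4 and -1.53 ± 0.01 in Phf21b+/+ mice (SD, n = 3 each), a difference of -0.05 (exact permutation p = 0.6). For Gabra4 to Gabrd the ratio was 2.82 ± 0.52 against 2.28 ± 0.14 (difference 0.53, exact permutation p = 0.3). In all, 7 pairs were compared, and in the other 3 the genotypes overlapped with exact permutation p of 0.4 or above. No p of a pair could pass a correction over 7 pairs in this design.

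**Figure D3:**
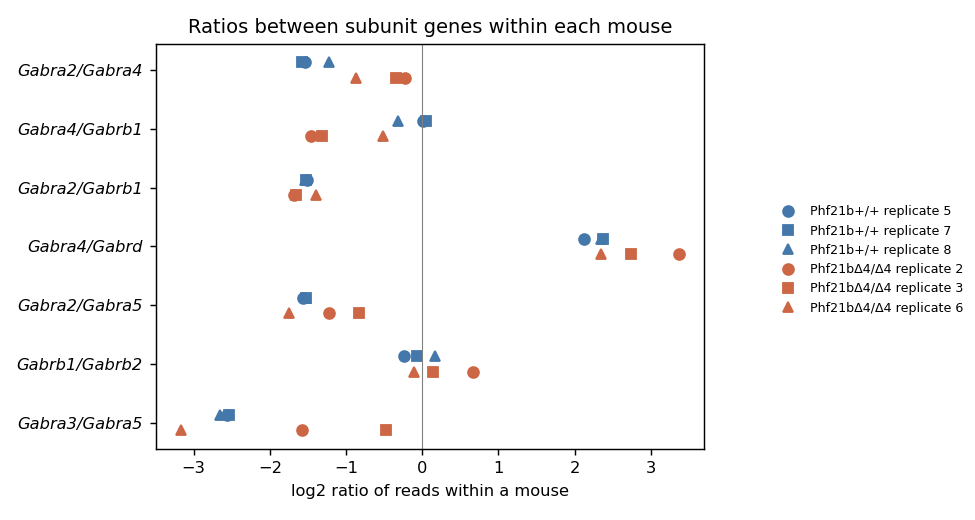
log2 ratio of the reads of 2 subunit genes within each mouse (x axis) for 7 pairs (y axis), with 1 symbol per mouse. The genotypes are apart for Gabra2/Gabra4 and Gabra4/Gabrb1, while Gabra2/Gabrb1 lies between -1.69 and -1.39 in all 6 mice.

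Other subunit genes were also read, and 0 of the 3 described here were called. On chromosome 5, Gabrg1, a γ subunit gene beside Gabra2, had a log2 change of -0.18 (95% interval -0.60 to 0.23, limma adjusted p = 0.523). On chromosome 7, Gabrg3, a γ subunit gene beside Gabra5, had 45.1, 50.6, and 26.7 CPM in Phf21bΔ4/Δ4 replicates 2, 3, and 6 and 20.8, 23.3, and 24.2 CPM in Phf21b+/+ replicates 5, 7, and 8. It was higher in every Phf21bΔ4/Δ4 mouse, with replicate 6 closest to the Phf21b+/+ mice (log2 change 0.79, limma adjusted p = 0.151). Gabrq, which encodes θ and lies beside Gabra3 on the X chromosome, had 0.285 to 1.98 CPM and a log2 change of 0.71 (SE 0.85, limma adjusted p = 0.615). Gabra6, Gabre, Gabrp, and Gabrr1 to Gabrr3 were looked for but are not among the genes listed for these libraries.

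**Figure D4:**
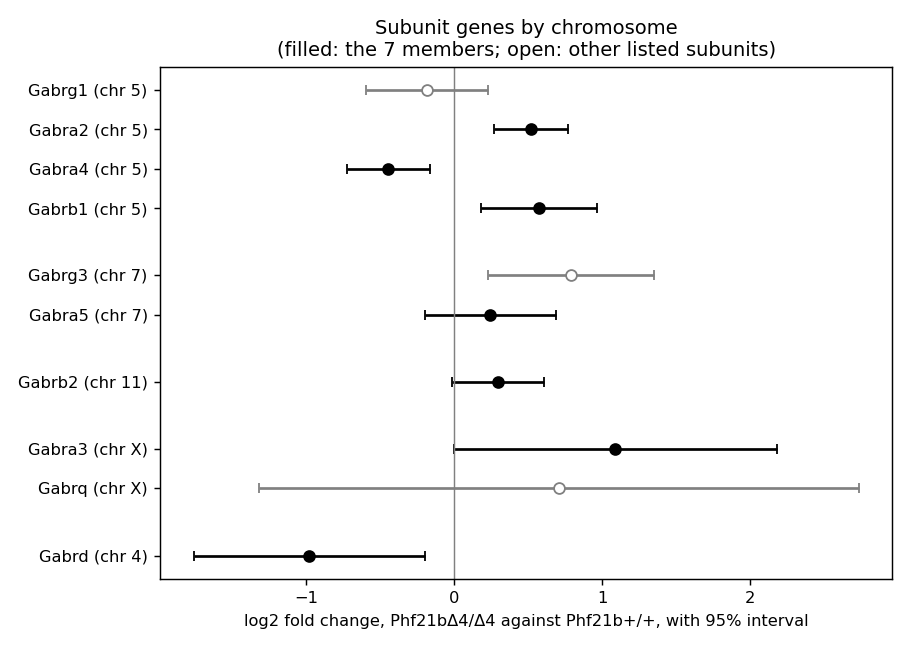
log2 fold change of 10 GABA-A receptor subunit genes in Phf21bΔ4/Δ4 against Phf21b+/+ mice (x axis) with the 95% interval from limma, grouped by chromosome (y axis), filled for the 7 subunits described and open for the other 3. Gabra4 at -0.44 lies between Gabra2 at 0.52 and Gabrb1 at 0.57 on chromosome 5.

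Other genes of GABA signalling were described by lists. Of 8 genes for GABA synthesis, release, uptake, and breakdown, 1 was called. Gad2, which makes GABA from glutamate at nerve terminals, had 174, 165, and 137 CPM in Phf21bΔ4/Δ4 replicates 2, 3, and 6 and 97.3, 106, and 105 CPM in Phf21b+/+ replicates 5, 7, and 8. It rose by 0.62 on the log2 scale (SE 0.11, limma adjusted p = 0.0831). Without any 1 of the mice other than Phf21bΔ4/Δ4 replicate 6, Gad2 missed the threshold (limma adjusted p = 0.1304 to 0.3052), and it also missed it with all mice under the same prior variance for all genes (0.141) and under quantile normalization (0.108). The list's median log2 change was 0.37, and 4 of 8 genes were higher without overlap, against 31.0% of all genes without overlap in either direction. Of 20 genes for anchoring and trafficking of the receptor, 0 were called, 8 were higher and 1 lower at an unadjusted p under 0.05 (23.6% of all genes in either direction), and the median log2 change was 0.23. The largest differences there were Plcl1 (-0.99, limma adjusted p = 0.135), which encodes a protein that binds GABA-A receptors and phosphatases, and Shisa7 (0.74, limma adjusted p = 0.141), an auxiliary subunit. Of 3 chloride gradient genes 0 were called. Slc12a5, which encodes the neuronal chloride exporter KCC2, and Clcn2, a chloride channel gene, had log2 changes of 0.60 and 0.51 (limma adjusted p = 0.135 and 0.133). Of 5 GABA-B receptor genes 0 were called, and Kctd8 and Kctd16, auxiliary subunits of that receptor, had log2 changes of -1.01 and 0.33 (limma adjusted p = 0.145 and 0.349).

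In bulk tissue, fewer cells of a type and less RNA per cell cannot be told apart, so markers of cell types were read beside the subunits. Gabra4 and Gabrd are typical of dentate granule cells and of the thalamus. The summed level of 10 dentate granule cell markers was 458, 430, and 981 CPM in Phf21bΔ4/Δ4 replicates 2, 3, and 6 and 1220, 1046, and 1073 CPM in Phf21b+/+ replicates 5, 7, and 8. All 10 had lower means in Phf21bΔ4/Δ4 mice, 8 at an unadjusted p under 0.05 (23.6% of all genes in either direction), and 0 were called. Replicate 6, with the highest Gabrd and Gabra4 of its genotype, also had the highest dentate markers. Per 1000 CPM of these markers, Gabrd was 27.5, 45.0, and 32.8 CPM in Phf21bΔ4/Δ4 and 38.9, 35.3, and 31.8 CPM in Phf21b+/+ mice, and the genotypes overlapped. Gabra4 per 1000 CPM of dentate markers was 285, 300.1, and 166 against 169, 184, and 163 CPM, with replicates 2 and 3 above all others. Of 9 thalamus markers 8 had lower means and 3 were called lower (1.22% of all genes in either direction). The exception, Ntng1, gave 52.4 of the 80.9 CPM summed in Phf21bΔ4/Δ4 replicate 2. In replicates 3 and 6 it gave 93.2 of 174 CPM and 25.1 of 144 CPM. Per 1000 CPM of the 9 thalamus markers both Gabrd and Gabra4 were higher in every Phf21bΔ4/Δ4 mouse. The part of either tissue in the lower Gabra4 and Gabrd was not tested.

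Markers of other neurons were read in the same way. The sum of 8 markers of CA1 pyramidal neurons was 1374 to 1575 CPM in Phf21bΔ4/Δ4 and 673 to 778 CPM in Phf21b+/+ mice. Of the 8, 3 were called higher (1.22% of all genes in either direction), and these 3 are also in the study's own list of raised genes. Gabra5 per 1000 CPM of CA1 markers was 116 to 190 CPM in Phf21bΔ4/Δ4 and 276 to 278 CPM in Phf21b+/+ mice, without overlap. Because the list holds genes already known to be raised in these libraries, this ratio is only a description. Markers of GABAergic interneurons summed to 594, 643, and 445 CPM in Phf21bΔ4/Δ4 replicates 2, 3, and 6 and to 332 to 397 CPM in Phf21b+/+ mice. Of these 12 markers 0 were called, and 8 were higher at an unadjusted p under 0.05 (23.6% of all genes in either direction). Gabra3 followed the order of the marker sums among the Phf21bΔ4/Δ4 mice, highest in replicate 3 and lowest in replicate 6. Per 1000 CPM of interneuron markers Gabra3 was 147, 202, and 74.5 CPM in Phf21bΔ4/Δ4 replicates 2, 3, and 6 against 89.95 to 101 CPM in Phf21b+/+ mice. The sum of 8 general neuronal markers was 8023 to 9446 CPM in Phf21bΔ4/Δ4 and 5959 to 7626 CPM in Phf21b+/+ mice. Per 1000 CPM of these, Gabra2 was 10.99 to 11.82 CPM against 9.35 to 10.80 CPM, still without overlap, while Gabrb1 and Gabrb2 overlapped. Markers of CA2 and CA3 pyramidal neurons and of oligodendrocytes had 0 genes called (1.22% of all genes in either direction). Those of astrocytes and of choroid plexus had 1 each, lower in Phf21bΔ4/Δ4 mice. The choroid plexus sum in Phf21b+/+ replicate 5 (33.0 CPM) lay within the 27.8 to 88.5 CPM of Phf21bΔ4/Δ4 mice. The part of cell makeup in the subunit levels was not tested.

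**Figure D5:**
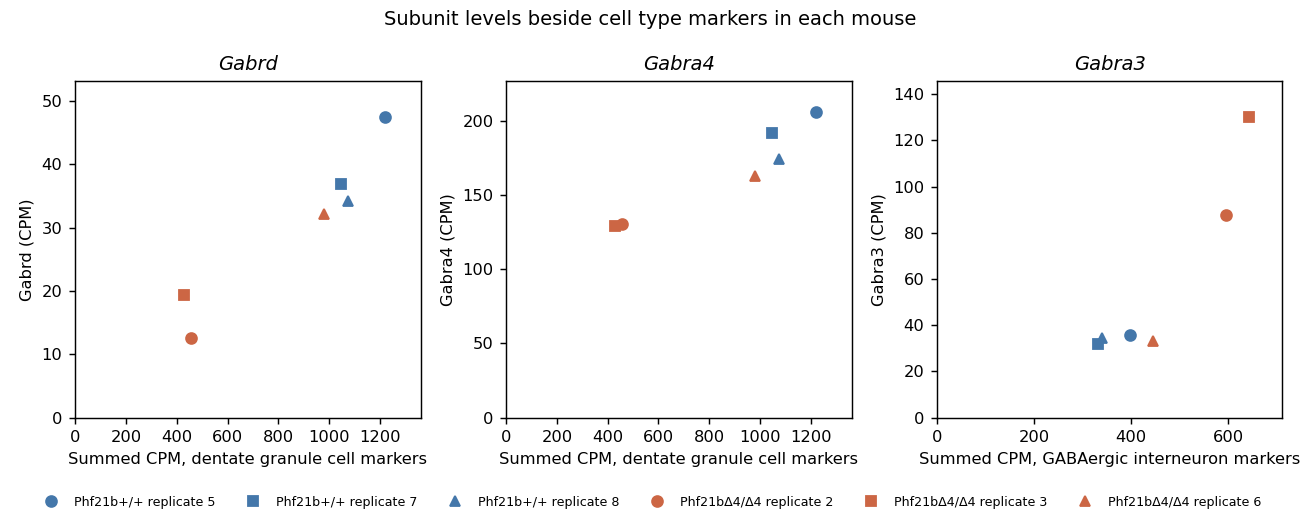
CPM of Gabrd, Gabra4, and Gabra3 (y axes) against the summed CPM of dentate granule cell or GABAergic interneuron markers (x axes), with 1 symbol per mouse. For Gabrd and Gabra4, Phf21bΔ4/Δ4 replicate 6 lies beside the Phf21b+/+ mice and replicates 2 and 3 lie at the lower left; for Gabra3, replicates 2 and 3 lie at the upper right.

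For each subunit, the gene whose level about its own mean over the 6 mice was nearest was found by the root mean square (RMS) difference on the log2 scale. Gabra2 was nearest to Usp46 (RMS 0.034), which encodes a deubiquitinase, with 224 to 266 CPM in Phf21bΔ4/Δ4 and 157 to 175 CPM in Phf21b+/+ mice. Gabra5 was nearest to Gria1 (RMS 0.036), which encodes an AMPA receptor subunit. Gabrb2 was nearest to Ogdhl (RMS 0.047), Gabrb1 to Gxylt2 (RMS 0.054), and Gabra4 to 3110082I17Rik (RMS 0.037). The 2 subunits with the widest range had the more distant neighbours, Gabra3 with Grin3a (RMS 0.173), an NMDA receptor subunit gene, and Gabrd with Nrg2 (RMS 0.137), a neuregulin gene. Grin3a had 99.0, 139, and 33.6 CPM in Phf21bΔ4/Δ4 replicates 2, 3, and 6, the same order as Gabra3. Among the 7 subunits themselves, Gabra2 and Gabrb1 were nearest to each other (RMS 0.098). These likenesses rest on 6 mice that share libraries and genotype, and are given as descriptions.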

How the data were processed

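Hippocampal RNA of 6 mice was assigned to genotype by the sample labels. The authors trimmed reads with Trimmomatic 0.39, mapped them to GRCm38 with STAR 2.7.3a, counted them over genes with featureCounts (Subread 1.6.4), and deposited log2 CPM normalized to effective library size with edgeR, after low genes had been dropped. The prior count and the strandedness of counting are not given in the sources used here. Low values moved in steps of 1 read, and 100.0% of values were whole reads within 0.1 once a mean prior of 0.1 reads was removed. These reads gave CPM, depth, and the voom alternative.

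The deposited log2 CPM of the genotypes were tested with limma 3.58.1 in R 4.3.3 (prior variance following expression, no covariate), with Benjamini-Hochberg adjustment over 14477 genes. The authors tested with edgeR, whose model takes counts. The thresholds of FDR 0.1 and fold 1.3 are those of its methods. The test was checked on simulated data. Permutation tests were exact and two-sided. The genotypes share no replicate numbers.

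Lengths and GC content came from GENCODE M21 (98.7% of symbols matched), while the authors' annotation was another release. The subunits, gene lists, and tests were chosen with earlier results of these data known. Named were the 7 subunits, the other listed subunits, called genes of the pathway lists (or the 2 largest changes where a list had none called), Phf21b, and the gene nearest in profile (mean log2 CPM of at least 1). Some results that fall under this rule are not reported here and are left out of the list counts. Xist, Gm9962, and Ntng1 were named after their values were seen. Alternatives were the prior variance, robust fitting, mouse weights, a low-value filter, pseudocounts of 1 and 0.1, quantile and median scaling, GC and length correction, voom, thresholds, and each mouse left out.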

Additional observations from a re-analysis of the deposited data

How the results depend on the processing

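In 17 alternative fits no subunit changed direction. The number of the 7 subunits past the threshold, 0 as reported, was 5 with arrayWeights, 1 with GC correction, 1 with gene length correction, and 0 to 5 when each mouse was left out, the 5 coming without Phf21bΔ4/Δ4 replicate 6. It was 0 with the other alternatives, an FDR under 0.05 and no fold threshold included. The median log2 change of the subunits was 0.29 as reported, 0.13 with quantile normalization, and 0.25 to 0.45 with a mouse left out. The number of subunits without overlap was 4, and 2 with GC correction. Of 39 GABA pathway genes 1 was called as reported, 0 with the same prior variance for all genes, 15 with arrayWeights, 0 with quantile normalization, 2 with centring on the median, 7 with GC correction, 4 with gene length correction, and 0 to 14 with a mouse left out, the 14 coming without Phf21bΔ4/Δ4 replicate 6. The cause was not tested. Over all genes, 176 were called as reported, 75 with the same prior variance, 101 once genes of mean log2 CPM under 1 were dropped, 549 with GC correction, 346 with gene length correction, 3549 with arrayWeights, 25 at an FDR under 0.05, 2830 without Phf21bΔ4/Δ4 replicate 6, and 9 to 45 with another mouse left out. The median over all genes lay between -0.024 and 0.076 across the fits. No paired analysis was possible because the genotypes share no replicate numbers. Leaving out a mouse left 2 in its genotype, and with 3 against 3 mice an exact permutation p cannot go below 0.1. Each of the 7 subunits had at least 299 reads in every library, whereas Gabrq had as few as 6.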
